A study of Mus musculus with 8 samples.

Results

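RNA levels of the SR proteins, the heterogeneous nuclear ribonucleoproteins (hnRNPs) and the best known tissue-regulated splicing factors were followed in mouse embryonic stem cells after deletion of Htatsf1. The genes were taken by symbol: every identifier that starts with Srsf or Hnrnp, together with Tra2a, Tra2b, Ptbp1, Ptbp2, Ptbp3, Rbmx, Rbm39, Celf1, Mbnl1, Mbnl2, Rbfox2, Esrp1 and Esrp2. This gave 42 of the 20461 gene identifiers in the tables. The rule itself uses no measured value, but it was set with earlier results of these data known. They comprise 11 SR proteins, 3 SR-related proteins (Tra2a, Tra2b and Rbm39), 22 hnRNPs, among which Ptbp1, Ptbp2, Ptbp3 and Rbmx are counted, and 6 tissue-regulated factors (Celf1, Mbnl1, Mbnl2, Rbfox2, Esrp1 and Esrp2).

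The stem cells came from mice with floxed Htatsf1 alleles and CreERT2, a Cre recombinase that tamoxifen activates, and were grown on mouse embryonic fibroblasts (MEFs). The HTATSF1 protein binds RNA and acts with U2 snRNP during spliceosome assembly. Cells received ethanol, the control, or tamoxifen for 48 h or 72 h, and polyadenylated RNA was sequenced from 2 libraries in each of the 4 groups. All 8 libraries carry the floxed gene and CreERT2, so no group received tamoxifen without a floxed allele, and an effect of tamoxifen or of Cre activity itself cannot be told apart from that of the deletion. The labels name neither the promoter of CreERT2 nor the number of stem cell lines, and leave it unsaid whether libraries within a group were separate cultures. Every p-value here thus reflects only how these libraries spread, and that spread may be technical.

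SR proteins bind exonic enhancers through RNA recognition motifs and recruit the spliceosome through domains rich in arginine and serine. Most hnRNPs bind introns or exons and often oppose them, so that the balance of both families sets which exons are included. Many genes of both families control their own level through alternative exons that carry a stop codon and send the transcript to nonsense-mediated decay. PTBP, MBNL, CELF, RBFOX and ESRP proteins add programmes of exon choice particular to a tissue or a developmental stage, and MBNL proteins are known to oppose splicing patterns of pluripotent cells.

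Promoter sequences are given for 4 genes: Srsf2, Srsf3 and Srsf7, SR genes that were lower in tamoxifen at 72 h, and Mbnl2, whose log2 change of FPKM + 1 was the highest of the 41 genes tested at both times (as a ratio of means at 72 h, the low gene Srsf12 stood higher, at 2.08 against 1.85). Each line holds the 250 bases upstream of the RefSeq start site on GRCm38.p6, 5′ to 3′ on the strand of the gene. The positions are chr11:116853095-116853344 on the minus strand for Srsf2, chr17:29032410-29032659 on the plus strand for Srsf3, chr17:80207306-80207555 on the minus strand for Srsf7 and chr14:120275419-120275668 on the plus strand for Mbnl2. Capitals mark matches on either strand to a CCAAT box (CCAAT), a GC box (GGGCGG), an ETS core (CCGGAAG) or a TATA box (TATAAA), and adjacent or overlapping GC boxes run together.
Srsf2: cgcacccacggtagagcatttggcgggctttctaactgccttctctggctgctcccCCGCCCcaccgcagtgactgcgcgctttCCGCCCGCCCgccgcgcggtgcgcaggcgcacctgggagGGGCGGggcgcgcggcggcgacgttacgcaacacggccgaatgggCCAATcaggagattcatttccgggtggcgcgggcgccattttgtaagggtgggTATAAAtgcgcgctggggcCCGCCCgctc
Srsf3: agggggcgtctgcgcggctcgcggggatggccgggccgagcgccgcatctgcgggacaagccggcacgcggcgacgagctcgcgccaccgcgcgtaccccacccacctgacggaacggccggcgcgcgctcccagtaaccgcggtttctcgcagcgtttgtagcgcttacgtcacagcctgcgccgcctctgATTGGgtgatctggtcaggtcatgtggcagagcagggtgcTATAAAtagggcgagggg
Srsf7: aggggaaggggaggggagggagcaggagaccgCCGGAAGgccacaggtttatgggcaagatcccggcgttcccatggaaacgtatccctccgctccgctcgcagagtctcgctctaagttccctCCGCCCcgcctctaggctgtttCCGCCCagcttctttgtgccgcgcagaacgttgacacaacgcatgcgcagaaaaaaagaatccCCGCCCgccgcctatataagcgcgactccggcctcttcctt
Mbnl2: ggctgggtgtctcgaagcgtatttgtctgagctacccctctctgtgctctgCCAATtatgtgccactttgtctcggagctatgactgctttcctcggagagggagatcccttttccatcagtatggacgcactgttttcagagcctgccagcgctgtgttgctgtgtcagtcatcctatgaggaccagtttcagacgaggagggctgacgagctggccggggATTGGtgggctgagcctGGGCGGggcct
Srsf2 and Srsf3 hold a TATA box, whose first base lies 29 bases before the start in Srsf2 and 18 bases before it in Srsf3.

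RefSeq upstream sequences were matched by symbol for 37 of the 42 genes, with none for Esrp1, Esrp2, Hnrnpul2, Ptbp3 and Rbfox2. A GC box was present in 73.0% of the 37 and in 32.9% of all 27025 upstream sequences of the same length. For a CCAAT box the shares were 56.8% and 34.5%, for the ETS core 16.2% and 7.05%, for a CACGTG E-box 10.8% and 6.05%, and for a TATA box 10.8% and 13.0%. These upstream sequences were also richer in G and C, with a median GC content of 61.6% against 52.0%, and the motif shares were not adjusted for that. The 4 genes with a TATAAA match were Srsf2, Srsf3, Hnrnpm and Mbnl1. In Hnrnpm and Mbnl1 its first base lay 216 and 120 bases before the start. Only these exact letters were counted, so a variant such as tatataa near the end of the Srsf7 line was not. A match is a description of the letters and not a measured site.

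Depth, estimated as the sum of fragments implied by the deposited confidence intervals, ran from 8.99 to 16.8 M fragments per library. Htatsf1 fell from 22.3 ± 0.92 to 3.95 ± 0.25 FPKM (fragments scaled to transcript length and library size, mean ± SD, n = 2) at 48 h and from 22.7 ± 0.02 to 4.38 ± 0.36 FPKM at 72 h, with each tamoxifen library below each ethanol library. The stem cell markers Pou5f1, Nanog and Zfp42 were present in every library, while Sox2 is listed at 0 in all 8. Fibroblast markers were present too, none of the 34 at 0, and their summed level at 48 h was 1038 to 1092 FPKM with ethanol and 1505 to 1530 FPKM with tamoxifen, and at 72 h 1060 to 1095 FPKM and 2033 to 2192 FPKM. In limma's test 31 of the 34 were higher in tamoxifen at 48 h and 33 at 72 h. The summed level of 18 pluripotent stem cell markers at 48 h was 4069 to 4122 FPKM with ethanol and 3882 to 3981 FPKM with tamoxifen, and at 72 h 4872 to 5014 FPKM and 3891 to 4327 FPKM. A large part of these sums was Dppa5a, at means of 1283 FPKM with ethanol and 1260 FPKM with tamoxifen at 48 h. At 72 h its means were 2516 ± 77.6 FPKM and 1938 ± 289 FPKM (SD, n = 2). In limma's test 1 of the 17 tested was lower in tamoxifen at 48 h and 10 were lower at 72 h. Pou5f1 was not among them, with a log2 change of 0.10 ± 0.055 at 72 h (limma adjusted p = 0.181). The 12 primitive endoderm markers summed to 37 to 39 FPKM with ethanol and 44 to 47 FPKM with tamoxifen at 48 h, and to 56 to 58 FPKM and 74 to 77 FPKM at 72 h. Most of each sum was Lamb1. Its means at 48 h were 29.1 FPKM with ethanol and 35.5 FPKM with tamoxifen. Of the 7 tested, 2 were higher in tamoxifen at 48 h (Pdgfra and Lamb1). At 72 h 4 were higher (Pdgfra, Lamb1, Dab2 and Gata6) and 1 was lower (Lama1). Gata4 and Amn passed at neither time, so the rise was not shared by all of these markers. The part of any of these marker groups in the changes of the splicing regulators was not tested. In bulk RNA fewer cells of a type and less RNA per cell cannot be told apart, which holds for every change given here.

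Most of these genes were abundant. The mean FPKM over the 8 libraries had a median of 94.3 over the 41 genes that passed the filter of at least 1 FPKM in at least 2 libraries, against 10.4 over all 11867 genes tested. Of the 41, 20 were above 100 FPKM, 17 lay between 10 and 100, and 4 were below 10. The 5 highest on these values were hnRNPs: Hnrnpa2b1, which binds and sorts RNA, had a mean of 525 FPKM, Hnrnpab 489 FPKM, Hnrnpf, which binds G-runs, 468 FPKM, the C-rich binding Hnrnpk 417 FPKM, and Hnrnpu, which also binds chromatin, 333 FPKM. The places of Hnrnpa1 and Hnrnpa3 in this order are uncertain, because their FPKM at 48 h rest on 0.000476 and 0.0943 implied fragments per scaled count of the authors' deposited table. At the low end stood Rbmx (5.51 FPKM), the epithelial regulator Esrp2 (4.21 FPKM) and Srsf12 (0.73 FPKM). The fewest fragments behind a value of a tested gene were 16, for Srsf12, so its values carry the largest relative counting error. In the order of mean levels over all 42 genes, the library ranges of 38 of the 41 neighbouring pairs overlapped. The exceptions were Hnrnpl above Srsf5, Hnrnpr above Hnrnph3, and Esrp2 above Srsf12.

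**Figure D1:**
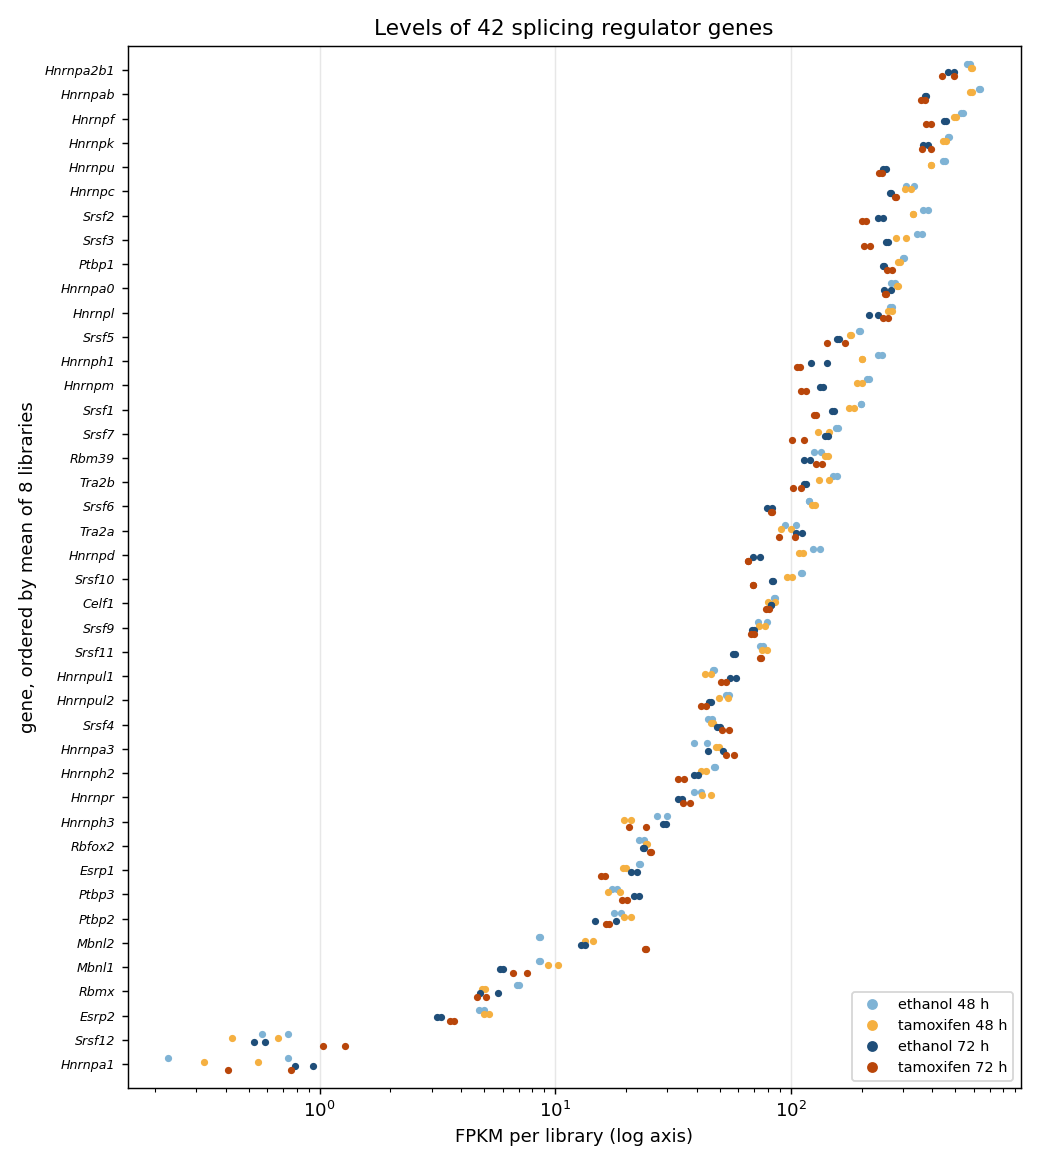
FPKM of each of the 42 genes (rows, ordered by mean) in each of the 8 libraries on a log axis, coloured by group. The genes run from Hnrnpa1 (mean 0.59 FPKM) to Hnrnpa2b1 (525 FPKM), and the 72 h libraries lie to the left of the 48 h libraries for most of the abundant genes.

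Among paralogs, Ptbp1, the pyrimidine tract binding protein of most non-neural cells, stood at 248 to 304 FPKM, against 14.8 to 21.0 FPKM for the neural paralog Ptbp2 and 16.8 to 22.7 FPKM for Ptbp3. Tra2b, an exon-enhancer binding SR-related protein, ranged from 102 to 157 FPKM and its paralog Tra2a from 89.1 to 111 FPKM. Esrp1 stood above Esrp2 in every library, at 15.7 to 22.8 FPKM against 3.16 to 5.22 FPKM. Mbnl1 (5.86 to 10.3 FPKM) and Mbnl2 (8.58 to 24.3 FPKM) overlapped in range. In the ethanol libraries at 48 h the MBNL pair stood close together, with Mbnl1 at 8.52 and 8.66 FPKM and Mbnl2 at 8.58 and 8.67 FPKM.

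Tamoxifen was then compared with ethanol at each time in a limma fit of log2(FPKM + 1), in which a gene is called at a Benjamini-Hochberg adjusted p under 0.05 over all 11867 genes. At 48 h, 1 of the 41 genes rose, Mbnl2, and 6 fell: Hnrnph3, Rbmx, Srsf3, Hnrnph1, Hnrnpd and Hnrnpu. Of all genes tested, 7.88% were higher and 4.47% lower at 48 h. At 72 h, 5 genes rose (Mbnl2, Srsf12, Srsf11, Hnrnpl and Rbm39) and 11 fell (Esrp1, Srsf7, Hnrnph3, Hnrnph1, Srsf3, Srsf10, Srsf1, Hnrnpm, Hnrnpf, Srsf2 and Hnrnph2), where 20.1% of all genes were higher and 18.5% lower. The 16 genes called at 72 h are 39.0% of the 41, a share similar to the 38.5% of all genes called in either direction. By direction the shares differed, with 26.8% of the 41 lower and 12.2% higher at 72 h. At 48 h 14.6% of the 41 were lower and 2.44% higher, beside the 4.47% and 7.88% of all genes. In the authors' deposited table at 72 h, 45.2% of the 42 genes were lower and 9.52% higher, beside 15.5% and 16.5% of all rows. At 48 h these shares were 38.1% and 2.38%, beside 5.31% and 6.62%. The median log2 change of the 41 was -0.06 at 48 h and -0.05 at 72 h, beside 0.018 and -0.005 over all genes. Irrespective of the test, both tamoxifen libraries lay above both ethanol libraries in 11 of the 41 genes and below them in 20 at 48 h (32.7% and 26.1% of all genes), and in 13 and 19 at 72 h (35.2% and 34.5%). The direction of calls at 48 h moved with scaling: higher calls were 63.8% of all calls on the deposited values and 51.6% after median-ratio scaling.

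The 6 falls at 48 h depended on single libraries. The count was 0 in limma's test without ethanol 48 h replicate 1, 1 was left without ethanol 48 h replicate 2 or without tamoxifen 48 h replicate 2, and 2 were left without tamoxifen 48 h replicate 1. Hnrnph3 and Rbmx passed in the 8 other alternatives of limma run, while Srsf3, Hnrnph1, Hnrnpd and Hnrnpu did not pass without the filter on low values or without the mean trend. Mbnl2 at 48 h and 11 of the 16 calls at 72 h (Mbnl2, Srsf11, Esrp1, Hnrnpf, Hnrnph3, Hnrnpm, Srsf1, Srsf2, Srsf3, Srsf7 and Srsf10) passed in every one of the 8 fits without 1 library and in those other alternatives.

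**Figure D2:**
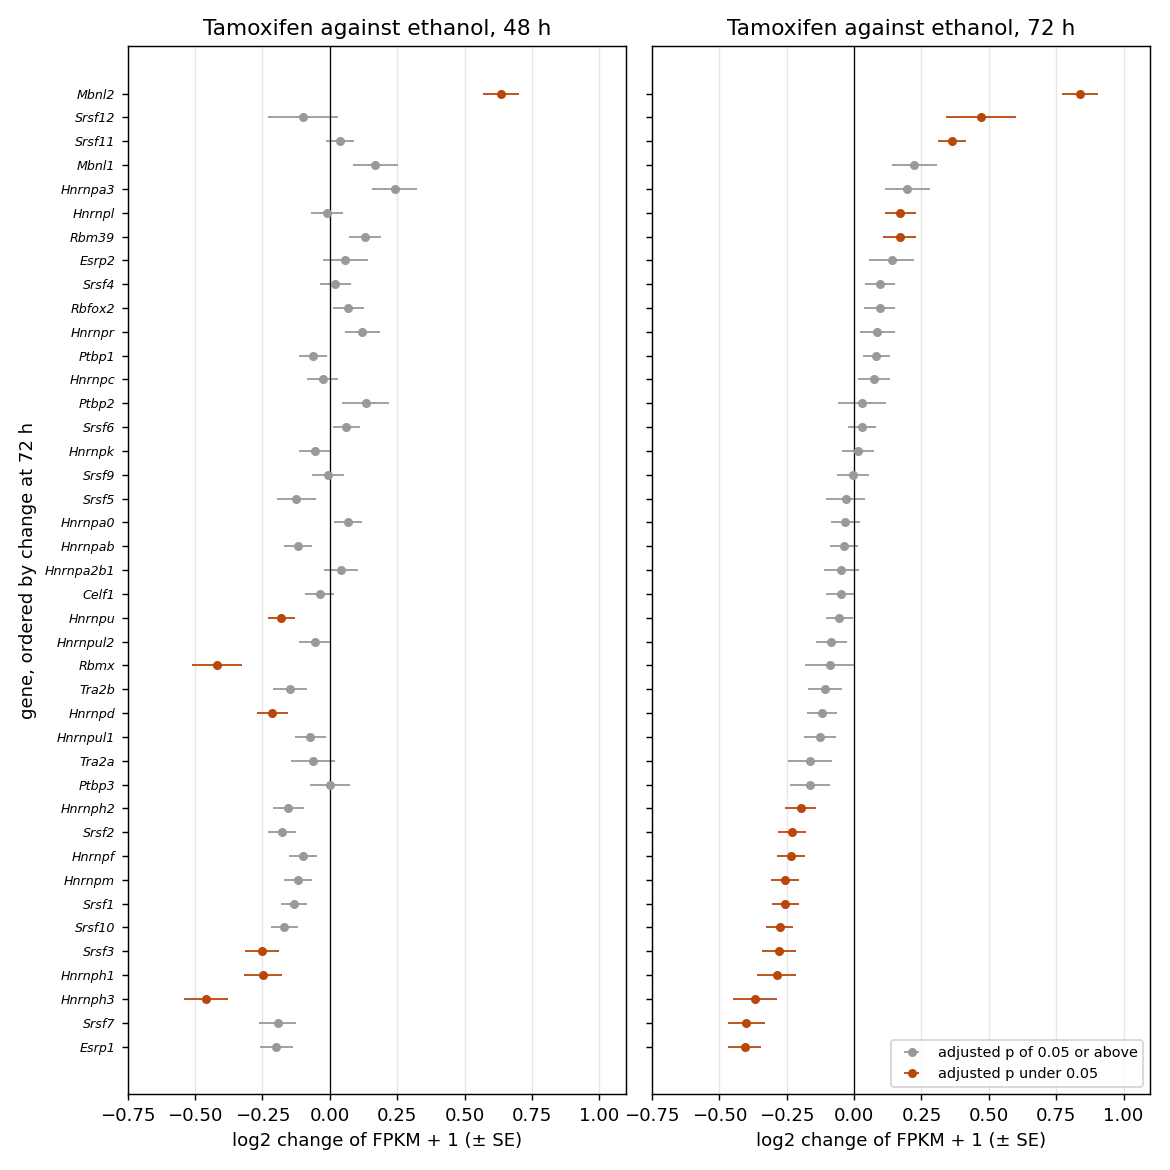
Log2 change of FPKM + 1 ± SE in tamoxifen against ethanol at 48 h (left) and 72 h (right) for the 41 genes tested, ordered by the change at 72 h, with genes under an adjusted p of 0.05 in orange. Mbnl2 stands apart at the top at both times (0.64 and 0.84), and the 11 genes that fell at 72 h lie between -0.41 and -0.20.

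MBNL2 is a zinc finger RNA-binding protein that switches exons during differentiation. Mbnl2 (mm9 chromosome 14, 120674891 to 120830920) stood at 8.58 and 8.67 FPKM in ethanol and, with tamoxifen at 48 h, at 14.5 and 13.4 FPKM. The 72 h values were 12.8 and 13.4 FPKM in ethanol and 24.3 and 24.2 FPKM in tamoxifen. Both tamoxifen libraries lay above both ethanol libraries at each time, and the ratio of means was 1.62 at 48 h and 1.85 at 72 h. The log2 change was 0.64 ± 0.07 (SE, limma adjusted p = 0.00047) at 48 h and 0.84 ± 0.07 (1.2e-05) at 72 h. Mbnl2 moved with the fibroblast markers in tamoxifen against ethanol. From 48 h to 72 h in ethanol Mbnl2 rose by 0.55 ± 0.07 (limma adjusted p = 7.4e-05), where 5 of the 34 fibroblast markers rose and 11 fell. Over the same time in tamoxifen it rose by 0.76 ± 0.07 (limma adjusted p = 1.3e-05), where 27 of the 34 rose and 1 fell. The part of the fibroblasts in any of these rises was not tested. Mbnl1 had log2 changes of 0.17 ± 0.08 (limma adjusted p = 0.219) at 48 h and 0.22 ± 0.08 (0.0572) at 72 h, with both tamoxifen libraries above both ethanol libraries at each time.

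ESRP1 is the main regulator of epithelial exon choice and is also present in pluripotent cells. Esrp1 stood at 21.0 and 22.2 FPKM in ethanol and at 15.7 and 16.3 FPKM in tamoxifen at 72 h, and fell by 25.7%. Its log2 change was -0.41 ± 0.06 (limma adjusted p = 0.00061). At 48 h it stood at 22.8 and 22.7 FPKM in ethanol and at 20.0 and 19.4 FPKM in tamoxifen, which did not pass the test (-0.20 ± 0.06, limma adjusted p = 0.0594). Both tamoxifen libraries were below both ethanol libraries at each time. Esrp2 had changes of 0.06 ± 0.08 and 0.14 ± 0.08, with limma adjusted p-values of 0.701 and 0.209. The other members of this group did not pass the test at either time: Celf1, which binds GU-rich RNA, lay between 78.6 and 86.2 FPKM in all 8 libraries, and Rbfox2 between 22.6 and 25.7 FPKM.

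Of the 11 SR protein genes, 1 fell at 48 h (Srsf3), and at 72 h 5 fell (Srsf1, Srsf2, Srsf3, Srsf7 and Srsf10) and 2 rose (Srsf11 and Srsf12), where 4.47% of all genes were lower at 48 h, and 18.5% lower and 20.1% higher at 72 h. The summed SR level was 1709 and 1704 FPKM in ethanol against 1580 and 1518 FPKM in tamoxifen at 48 h, and 1296 and 1287 FPKM against 1128 and 1185 FPKM at 72 h. Tamoxifen libraries were below ethanol libraries in this sum at each time, and both 72 h groups were below both 48 h groups.

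SRSF3 and SRSF7 are small SR proteins that also serve as adaptors of mRNA export. Srsf3 (mm9 chromosome 17, 29169605 to 29180317) stood at 343 and 361 FPKM in ethanol and at 310.4 and 281 FPKM in tamoxifen at 48 h, and at 259 and 255 FPKM against 204 and 218 FPKM at 72 h. The groups did not overlap at either time, and the log2 changes were -0.25 ± 0.06 (limma adjusted p = 0.0271) and -0.28 ± 0.06 (0.00578). The 48 h call was lost without ethanol 48 h replicate 1, ethanol 48 h replicate 2 or tamoxifen 48 h replicate 2, with an adjusted p of up to 0.185. Srsf7 (mm9 chromosome 17, 80599420 to 80606645) stood at 140.3 and 144 FPKM in ethanol and at 101 and 114 FPKM in tamoxifen at 72 h. It fell by 24.3%, the largest fall among SR genes at 72 h, with a log2 change of -0.40 ± 0.07 (limma adjusted p = 0.00135). At 48 h Srsf7 stood at 159 and 157 FPKM in ethanol and at 145 and 131 FPKM in tamoxifen, with a limma adjusted p of 0.0946. In the authors' deposited table it was lower at 48 h (-0.24, adjusted p = 0.00092).

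SRSF1 and SRSF2 are the prototypes of the family, and SRSF2 marks nuclear speckles. Srsf1 stood at 152 and 151 FPKM in ethanol and at 126 and 128 FPKM in tamoxifen at 72 h, a log2 change of -0.25 ± 0.05 (limma adjusted p = 0.00255). Srsf2 (mm9 chromosome 11, 116711211 to 116714408) stood at 246 and 236 FPKM in ethanol and at 201 and 209 FPKM in tamoxifen at 72 h, a change of -0.23 ± 0.05 (limma adjusted p = 0.00633). SRSF10 is known as a repressor once dephosphorylated. Srsf10 stood at 83.3 and 84.4 FPKM in ethanol and at 69.0 and 69.2 FPKM in tamoxifen at 72 h, a change of -0.28 ± 0.05 (limma adjusted p = 0.00183). In these 3 genes the tamoxifen libraries lay below the ethanol libraries at 72 h without overlap. At 48 h their changes were -0.13 (Srsf1), -0.18 (Srsf2) and -0.17 (Srsf10), with limma adjusted p-values of 0.11, 0.0534 and 0.0535. In the authors' deposited table Srsf1 and Srsf2 were lower at 48 h (adjusted p = 0.0382 and 0.00071), and Srsf10 did not pass (0.0551).

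Srsf11 and Srsf12 moved the other way at 72 h. Srsf11 stood at 74.4 and 76.2 FPKM in ethanol and at 79.3 and 75.5 FPKM in tamoxifen at 48 h, where the groups overlapped. The 72 h values were 58.3 and 56.9 FPKM in ethanol and 74.7 and 74.1 FPKM in tamoxifen. Both ethanol libraries of 72 h thus lay below the other 6 libraries. The log2 change was 0.04 ± 0.05 (limma adjusted p = 0.666) at 48 h and 0.36 ± 0.05 (0.00044) at 72 h. Srsf12, whose protein is related to SRSF10, rose at 72 h from 0.56 ± 0.04 to 1.16 ± 0.18 FPKM (mean ± SD, n = 2), by 0.47 ± 0.13 (limma adjusted p = 0.0156). That call was lost without ethanol 72 h replicate 1 or tamoxifen 72 h replicate 2, and after quantile normalization, with an adjusted p of up to 0.0921. Srsf4, Srsf5, Srsf6 and Srsf9 were called at neither time, with log2 changes between -0.12 and 0.10.

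RBM39 resembles the U2AF splicing factor, and Rbm39 was called higher at 72 h, at 114 and 121 FPKM in ethanol and 128 and 136 FPKM in tamoxifen (log2 change 0.17 ± 0.06, limma adjusted p = 0.047). The call held without tamoxifen 72 h replicate 1 and was lost without any other single library, with an adjusted p of up to 0.24. Tra2a had a change of -0.16 ± 0.08 (limma adjusted p = 0.143) and Tra2b of -0.11 ± 0.06 (0.201) at 72 h.

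**Figure D3:**
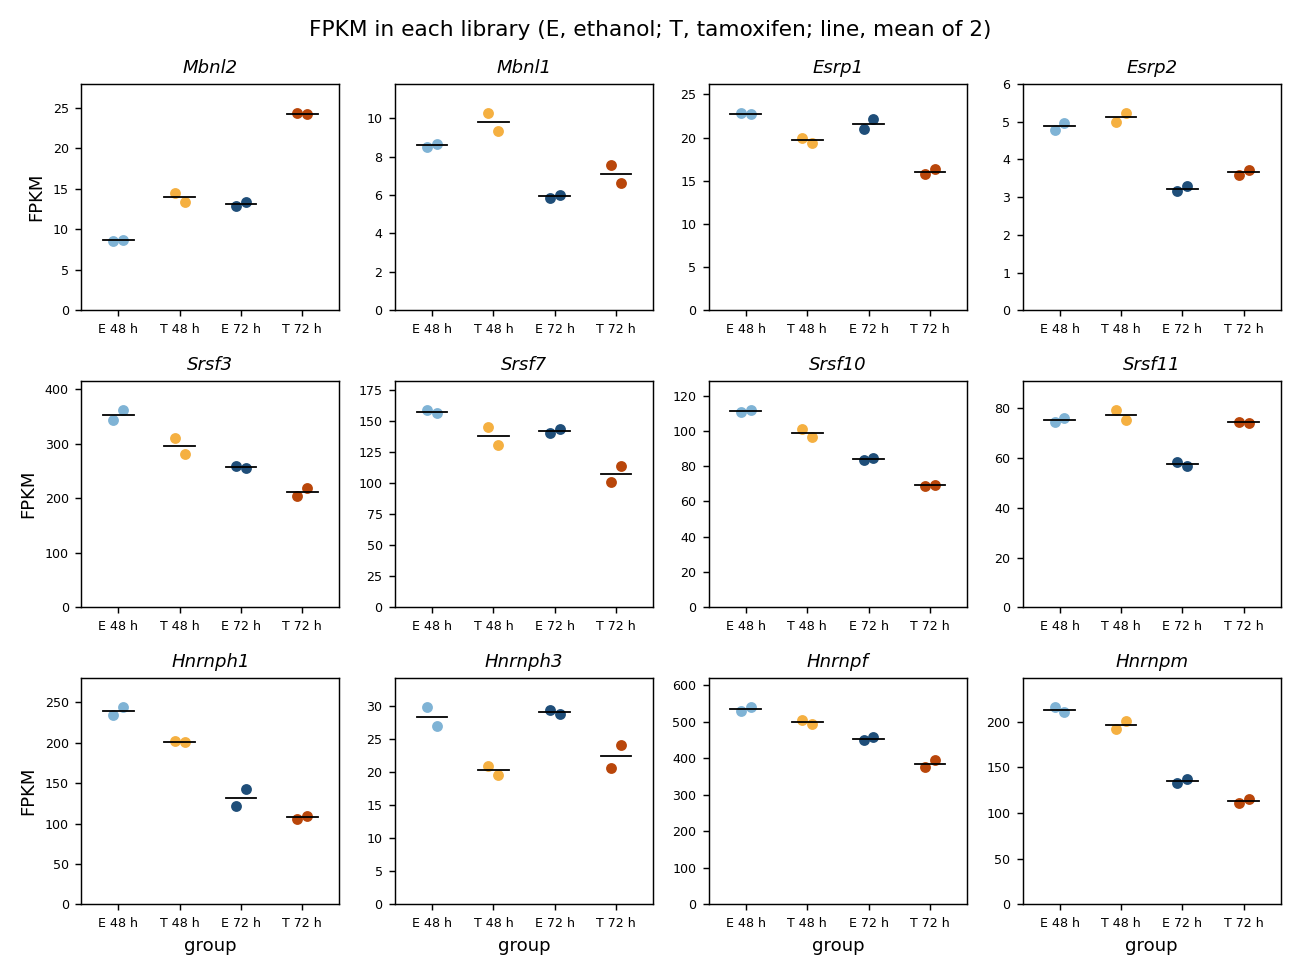
FPKM of 12 of the genes in each library (points) with the mean of each group of 2 (lines), each panel on its own linear axis from 0. Mbnl2 is highest in the tamoxifen libraries at 72 h (24.3 and 24.2 FPKM), Srsf11 is lowest in the ethanol libraries at 72 h (58.3 and 56.9 FPKM), and Hnrnph1 and Hnrnpm are lowest in the tamoxifen libraries at 72 h.

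Among the hnRNP genes, the 4 members of the F/H family, Hnrnpf, Hnrnph1, Hnrnph2 and Hnrnph3, all fell at 72 h. Hnrnph1 and Hnrnph3 also fell at 48 h. Of all genes, 18.5% were lower at 72 h and 4.47% at 48 h. The F/H family was not among the planned paralog groups. Its proteins bind runs of G near exons and can enhance or silence them. Hnrnph3 stood at 29.9 and 27.0 FPKM in ethanol and at 21.0 and 19.7 FPKM in tamoxifen at 48 h, and at 29.5 and 28.8 FPKM against 20.7 and 24.2 FPKM at 72 h. Its groups did not overlap at either time, and the log2 changes were -0.46 ± 0.08 (limma adjusted p = 0.00651) and -0.37 ± 0.08 (0.00572). Without ethanol 48 h replicate 1 the 48 h call was lost (adjusted p = 0.0627). Hnrnph1 stood at 234 and 244 FPKM in ethanol and at 201 and 200.5 FPKM in tamoxifen at 48 h, and at 122 and 143 FPKM against 106 and 109 FPKM at 72 h. The changes were -0.25 ± 0.07 (limma adjusted p = 0.0457) and -0.29 ± 0.07 (0.00922), with no overlap at either time. The 48 h call of Hnrnph1 was lost without any 1 of the 4 libraries of 48 h, and the 72 h call without ethanol 72 h replicate 2 (adjusted p = 0.0734).

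Hnrnpf, the most abundant of the 4, stood at 449 and 456 FPKM in ethanol and at 376 and 395 FPKM in tamoxifen at 72 h (-0.23 ± 0.05, limma adjusted p = 0.00564). At 48 h it stood at 529 and 539 FPKM in ethanol and at 504 and 492 FPKM in tamoxifen, which did not pass the test (adjusted p = 0.24). The tamoxifen libraries of Hnrnpf were below the ethanol libraries at both times. Hnrnph2, on mm9 chromosome X, changed by -0.20 ± 0.06 at 72 h (limma adjusted p = 0.019), a call lost without ethanol 72 h replicate 2 or tamoxifen 72 h replicate 1 (up to 0.103) and, by a narrow margin, in a fit of the 4 libraries of 72 h alone (0.05001). HNRNPM binds GU-rich RNA and is known for opposing ESRP1 in epithelial cells. Hnrnpm stood at 133 and 138 FPKM in ethanol and at 111 and 116 FPKM in tamoxifen at 72 h, without overlap (-0.25 ± 0.05, limma adjusted p = 0.00358).

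Hnrnpl, whose protein binds CA repeats, was the only hnRNP gene called higher at 72 h, from 225 ± 13.9 to 253 ± 8.8 FPKM (mean ± SD, n = 2), with a log2 change of 0.17 ± 0.06 (limma adjusted p = 0.0403). It was lost in 6 of the 8 fits without 1 library, and held without ethanol 72 h replicate 1 or tamoxifen 72 h replicate 2. Like that of Rbm39 it was also lost with median-ratio scaling, without the filter, without the trend and in a fit of the 4 libraries of 72 h. Hnrnpd, whose protein binds AU-rich elements, fell at 48 h from 129 ± 5.6 to 111 ± 2.7 FPKM (-0.21 ± 0.06, limma adjusted p = 0.0338), and Hnrnpu fell from 447 ± 6.7 to 395 ± 0.7 FPKM (-0.18 ± 0.05, limma adjusted p = 0.0419). The calls of Hnrnpd and Hnrnpu were lost without any 1 of the 4 libraries of 48 h, and that of Hnrnpu also without ethanol 72 h replicate 1 or 2. The PTBP genes passed limma's test at neither time. At 48 h and 72 h, Ptbp1 had changes of -0.06 ± 0.05 and 0.08 ± 0.05, and Ptbp2 of 0.13 ± 0.09 and 0.03 ± 0.09. Ptbp3 had changes of 0.00 ± 0.07 and -0.16 ± 0.07, and was lower at 72 h in the authors' deposited table. The summed hnRNP level was 4671 and 4721 FPKM in ethanol against 4488 and 4452 FPKM in tamoxifen at 48 h. At 72 h it was 3526 and 3603 FPKM against 3400 and 3506 FPKM, so the groups did not overlap at either time, though at 72 h they lay close. These sums hold Hnrnpa1 and Hnrnpa3 at FPKM values that imply far fewer fragments than the authors' scaled counts. RNA of both genes may thus be missing from the sums.

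Rbmx, an X-linked hnRNP G gene, lies 316.2 kb from Htatsf1 on mm9 chromosome X (Htatsf1 54306747 to 54320359, Rbmx 54636525 to 54646213), with 3 listed genes between them (Arhgef6, Cd40lg and Vgll1). It stood at 6.87 and 7.06 FPKM in ethanol and at 5.02 and 4.89 FPKM in tamoxifen at 48 h, and at 4.81 and 5.72 FPKM against 5.07 and 4.67 FPKM at 72 h. The groups were apart at 48 h and overlapped at 72 h. The log2 change was -0.42 ± 0.09 (limma adjusted p = 0.0159) at 48 h and -0.09 ± 0.09 (0.471) at 72 h, and the 48 h call was lost without any 1 of the 4 libraries of 48 h (adjusted p up to 0.0982). Rbmx has a near-identical intronless copy, Rbmxl1, listed at a mean of 163 FPKM in ethanol and 152 FPKM in tamoxifen at 48 h and of 121.5 and 97.1 FPKM at 72 h. How reads were divided between Rbmx and Rbmxl1 is not given in the sources used here, so the values of both are uncertain. Rbmxl1 had a change of -0.10 ± 0.05 (limma adjusted p = 0.257) at 48 h and fell at 72 h, by 0.32 on the log2 scale (0.00124).

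4 genes were called at both times, in the same direction (Mbnl2 higher, Hnrnph1, Hnrnph3 and Srsf3 lower), 3 at 48 h only, 12 at 72 h only and 22 at neither. Of all genes, 12.4% were called at 48 h and 38.5% at 72 h, and the share called at both was not counted. Among the 12, Srsf1, Srsf2, Srsf7, Hnrnpf and Hnrnpm were lower at 48 h too in the authors' deposited table. The tamoxifen changes at both times were compared directly as an interaction. Srsf11 was the only gene of the 41 whose change was called higher at 72 h (difference 0.32 ± 0.07 on the log2 scale, limma adjusted p = 0.0419), and 0 were called lower. Of all genes, 3.45% were called in this test. The call of Srsf11 was lost in each of the 8 fits without 1 library (adjusted p up to 0.148), and also without the filter and without the trend. Rbmx (0.33 ± 0.13, limma adjusted p = 0.188), Mbnl2 (0.20 ± 0.09, 0.252) and Esrp1 (-0.21 ± 0.09, 0.204) did not pass, so calls at 1 time are not shown to differ from those at the other.

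From 48 h to 72 h in ethanol, 25 of the 41 genes fell and 4 rose, where 19.2% of all genes were lower and 38.0% higher, 57.2% in all. Both 72 h libraries lay below both 48 h libraries in 30 of the 41 and above them in 5, against 29.4% and 50.8% of all genes. The median log2 change was -0.25 for the 41 and 0.11 over all genes. The 5 largest falls were those of Hnrnph1 (-0.85 ± 0.07), Hnrnpd (-0.84 ± 0.06), Hnrnpu (-0.83 ± 0.05), Hnrnpab (-0.76 ± 0.05) and Hnrnpm (-0.65 ± 0.05), with limma adjusted p-values of 7.6e-06 or less. Hnrnpab went from 631 and 636 FPKM to 376 and 372 FPKM, and Hnrnpu from 452 and 442 FPKM to 246 and 255 FPKM. Hnrnpd went from 125 and 133 FPKM to 73.9 and 69.4 FPKM, and fell by 44.4%. In each of these genes the libraries of both times did not overlap. Mbnl2 rose by 0.55 ± 0.07, Ptbp3 by 0.30 ± 0.07, Hnrnpul1, an hnRNP U-like gene, by 0.27 ± 0.06 and Hnrnpa3 by 0.22 ± 0.08, with limma adjusted p-values of 7.4e-05, 0.0053, 0.0028 and 0.0469.

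From 48 h to 72 h in tamoxifen, 26 of the 41 genes fell and 4 rose, where 19.6% of all genes were lower and 37.5% higher, 57.1% in all. Here 30 of the 41 had both 72 h libraries below both 48 h libraries and 7 had them above, against 28.3% and 50.1% of all genes. The median log2 change was -0.27 for the 41 and 0.12 over all genes. The largest falls were those of Hnrnph1 (-0.89 ± 0.07), Hnrnpm (-0.79 ± 0.05), Hnrnpd (-0.74 ± 0.06), Hnrnpu (-0.71 ± 0.05) and Srsf2 (-0.69 ± 0.05), with limma adjusted p-values of 7.3e-06 or less. Srsf2 went from 331 in both libraries to 201 and 209 FPKM, and Hnrnpm from 192 and 200.2 FPKM to 111 and 116 FPKM. Mbnl2 rose by 0.76 ± 0.07, Srsf12 by 0.49 ± 0.13, Hnrnpul1 by 0.21 ± 0.06 and Srsf4 by 0.19 ± 0.06, with limma adjusted p-values of 1.3e-05, 0.0088, 0.0102 and 0.0144. The comparisons in ethanol and in tamoxifen share no library, but they share 1 estimate of the spread and any difference in preparation between times. Both had 22 falling genes in common, of the 25 in ethanol and the 26 in tamoxifen, and both had the rises of Mbnl2 and Hnrnpul1. The share of all genes that fell in both was not counted, so this overlap is not shown to be particular to the 41.

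By family, 7 of 11 SR genes and 15 of 21 hnRNP genes fell with time in ethanol, and the same counts fell in tamoxifen, where 19.2% and 19.6% of all genes were lower. The summed SR level went from 1709 and 1704 FPKM to 1296 and 1287 FPKM in ethanol, and the summed hnRNP level from 4671 and 4721 FPKM to 3526 and 3603 FPKM. The hnRNP sum again holds Hnrnpa1 and Hnrnpa3 at their uncertain FPKM values. The tissue-regulated group summed to 153 and 154 FPKM at 48 h and to 149 and 151 FPKM at 72 h in ethanol. Within it Mbnl1 fell (-0.47 ± 0.08, limma adjusted p = 0.00088) and Esrp2 fell (-0.48 ± 0.08, 0.00078) while Mbnl2 rose.

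Scaling bears on these time comparisons. Median-ratio scaling moved the median of all genes from 0.11 to -0.002 in ethanol and from 0.12 to 0.01 in tamoxifen, and the share of higher calls from 66.4% to 49.8% and from 65.63% to 50.04%. Under it 32 of the 41 genes fell and 1 rose in ethanol, and 31 fell and 2 rose in tamoxifen. Of all genes, 28.4% were then lower and 28.2% higher in ethanol, and 27.9% lower and 27.9% higher in tamoxifen. Ptbp3, Hnrnpul1 and Hnrnpa3 lost their rise in ethanol under it, as did Hnrnpul1 and Srsf4 in tamoxifen. Quantile normalization gave medians of -0.011 and -0.008 for all genes and of -0.232 and -0.237 for the 41. With it Hnrnpa2b1, Hnrnpf, Hnrnpl and Srsf5 lost their fall in ethanol, and Ptbp2 gained a fall and Tra2a a rise. In tamoxifen Hnrnpa0, Hnrnpc, Hnrnpk, Ptbp1 and Srsf5 lost their fall and Srsf12 its rise, and Rbmx gained a fall. Without 1 library, the calls lost among the rises were Hnrnpa3 in ethanol (without ethanol 48 h replicate 2, ethanol 72 h replicate 2 or either tamoxifen 48 h library), and in tamoxifen Srsf12 (tamoxifen 48 h or 72 h replicate 2), Hnrnpul1 (tamoxifen 48 h replicate 2 or tamoxifen 72 h replicate 1) and Srsf4 (tamoxifen 48 h or 72 h replicate 1). Whether both times were prepared together is not in the labels, so time and preparation cannot be told apart.

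**Figure D4:**
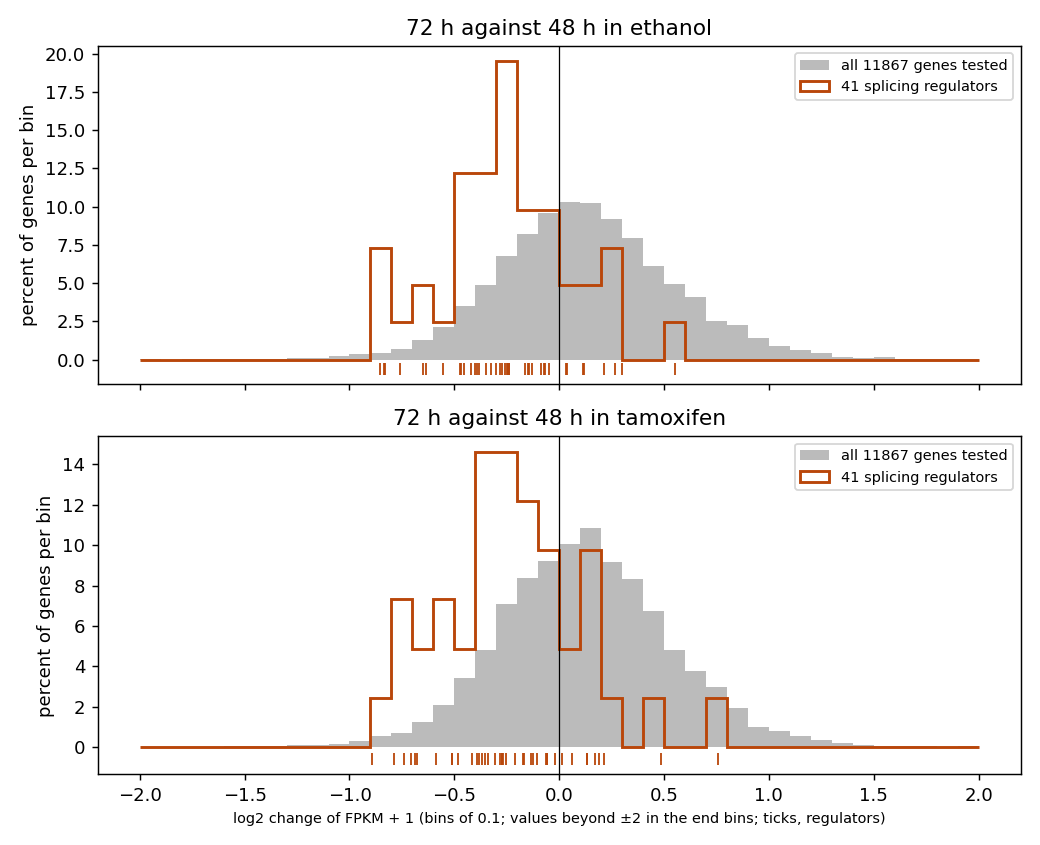
Distribution of the log2 change of FPKM + 1 from 48 h to 72 h in ethanol (top) and tamoxifen (bottom), as percent of genes per bin of 0.1, for all 11867 genes (grey) and the 41 splicing regulators (orange outline and ticks). The regulators lie mostly below 0, with medians of -0.25 and -0.27, while all genes have medians of 0.11 and 0.12.

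The authors' deposited tables of scaled counts give a second view of the tamoxifen comparisons from the same libraries. At 48 h the authors' deposited table had 15 of the 41 genes lower and 1 higher at their adjusted p under 0.05, where 5.31% of all rows were lower and 6.62% higher. At 72 h there were 18 of the 41 lower and 4 higher in the authors' deposited table, where 15.5% of all rows were lower and 16.5% higher. All 7 limma calls at 48 h and 15 of 16 at 72 h had the same call there, the exception being Rbm39 (log2 change 0.04, adjusted p = 0.846 in the authors' deposited table). Genes lower only in the authors' deposited table at both times included Srsf5, which had a log2 change of -0.19 (adjusted p = 0.0141) at 48 h and -0.16 (0.0278) at 72 h there, and Tra2b, with -0.18 at both times (0.0227 and 0.0241). At 48 h, 9 genes without a limma call at that time were lower in the authors' deposited table. Besides Srsf5, Tra2b and Hnrnpa3 they were Srsf2 (-0.243), Srsf7 (-0.241), Hnrnpm (-0.195), Hnrnpab (-0.181), Srsf1 (-0.153) and Hnrnpf (-0.149). At 72 h, 7 genes without a limma call at that time were lower in the authors' deposited table. Besides Srsf5, Tra2b and Hnrnpa3 they were Hnrnpa2b1 (-0.29), Ptbp3 (-0.25), Tra2a (-0.24) and Hnrnpd (-0.23).

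The FPKM values of Hnrnpa1 and Hnrnpa3 stood apart from the authors' counts. HNRNPA1 is an abundant splicing repressor, yet Hnrnpa1 is listed at 0.23 to 0.94 FPKM and was the 1 gene of the 42 below the filter. Its values imply a mean of 9.5 fragments per library at 48 h and 19.0 at 72 h. In the authors' deposited table its mean scaled count at 48 h was 22263 with ethanol and 17650 with tamoxifen (log2 change -0.34, adjusted p = 3.4e-08), and 18972 and 14109.9 at 72 h (-0.43, 3.9e-08). Hnrnpa3 had 0.0943 implied fragments per scaled count at 48 h and 0.12 at 72 h, where the median gene of the 42 had 1.045 and 1.052. It was lower in the authors' deposited table at both times (-0.19, adjusted p = 0.0124, and -0.28, 0.00202), while its FPKM had changes of 0.24 ± 0.08 (limma adjusted p = 0.0883) and 0.20 ± 0.08 (0.0846), so the direction differed between FPKM and scaled counts. Hnrnpa1 has processed copies in the genome, and how reads on such copies were assigned is not given in the sources used here. The rise of Hnrnpa3 with time in ethanol rests on the same FPKM values.

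**Figure D5:**
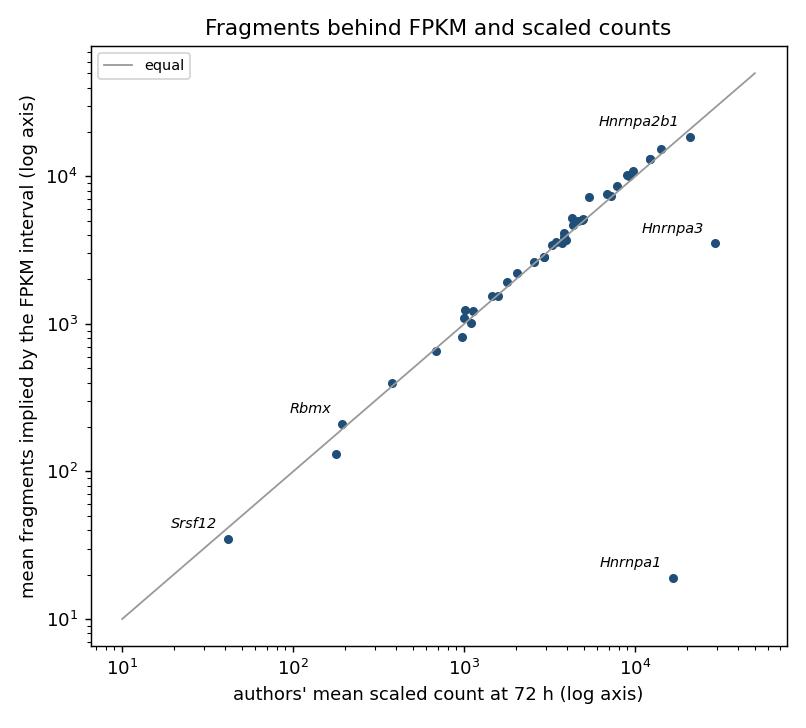
Mean fragments implied by the FPKM intervals against the authors' mean scaled count at 72 h for the 42 genes, both on log axes, with the line of equality. Most genes lie along the line, while Hnrnpa1 (19.0 fragments) and Hnrnpa3 (0.12 fragments per scaled count) lie far below it.

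Genes that act on SR proteins and hnRNPs or beside them were read from 3 lists. Of 30 tested kinases, phosphatase regulators, importers and speckle proteins, 1 rose and 3 fell at 48 h, and 3 rose and 7 fell at 72 h. That is 13.3% and 33.3% of the list, beside 12.4% and 38.5% of all genes. Srpk1, the kinase that phosphorylates SR proteins in the cytoplasm, fell at 48 h (-0.34 ± 0.07, limma adjusted p = 0.0107). At 72 h it fell from 54.4 ± 3.8 to 34.5 ± 1.2 FPKM (mean ± SD, n = 2), by 0.64 on the log2 scale (limma adjusted p = 6.9e-05). Dyrk3, a kinase that dissolves nuclear condensates, rose at 48 h (0.54 ± 0.07, limma adjusted p = 0.00125) and at 72 h (0.41 ± 0.07, 0.00119), and the speckle protein gene Bclaf1 fell at 48 h (-0.28 ± 0.05, 0.00899). The median log2 change of this list was 0.01 at 48 h and 0.02 at 72 h.

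Of 58 tested other regulators of alternative splicing, 4 rose and 6 fell at 48 h, and 11 rose and 16 fell at 72 h, which is 17.2% and 46.6% of them beside the same 12.4% and 38.5% of all genes. Rbm17, which encodes the U2-associated SPF45, rose from 86.6 ± 1.5 to 113 ± 0.4 FPKM at 48 h (0.38 ± 0.05, limma adjusted p = 0.00184) and from 76.7 ± 0.2 to 130.4 ± 6.4 FPKM at 72 h (0.76 ± 0.05, 5.2e-06). Taf15, which encodes an RNA-binding protein, fell at 48 h (-0.40 ± 0.06, limma adjusted p = 0.00333), and Sfpq, a paraspeckle protein, fell at 72 h (-0.57 ± 0.05, 1.7e-05). Of 19 nonsense-mediated decay factors, 1 fell at 48 h, and 2 rose and 2 fell at 72 h, with medians of -0.02 and 0.003. The shares called were 5.26% and 21.1%, beside the 12.4% and 38.5% of all genes. Pnrc2, a decapping adaptor, fell at both times (-0.32 ± 0.08, limma adjusted p = 0.0228, and -0.42 ± 0.08, 0.00175), and Nbas fell at 72 h (-0.33 ± 0.09, 0.0131). Upf3a had a change of -0.24 ± 0.07 at 48 h (limma adjusted p = 0.0628).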

How the data were processed

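Polyadenylated RNA was sequenced as paired ends in 8 libraries, grouped by the treatment and time in the labels. BWA 0.6.1, DESeq, HTSeq, Cufflinks 1.3.0, TopHat 1.4.1 and the build mm9 are named per the submitters' processing notes, with roles not given in the sources used here. Each library has a deposited table of gene FPKM, its interval and a status, which the authors scaled to length and depth. The authors also deposited, for each time, group means (a signal of counts over size factors), a ratio (fold change), its log2 and a p-value with its adjusted form, per the file headers. Those fold changes are ethanol over tamoxifen and were turned here.

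Of 20789 entries, 209 with a status other than OK were left out and 1 entry per identifier was kept, which left 20388 identifiers, of which the 11867 that reached 1 FPKM in 2 or more libraries were tested. The deposited FPKM values were used without rescaling as log2(FPKM + 1), which understates changes of low genes such as Srsf12. A limma fit (R 4.3.3, limma 3.58.1) with a mean per group and a mean trend had 4 residual degrees of freedom. Tests were two-sided and adjusted by Benjamini-Hochberg within each of 5 contrasts, and the fit was tested on simulated data. Implied fragments come from the width of the deposited intervals, and cover counting error only. The squared difference within groups was 2.46 to 5.72 times the counting variance, and no library was a duplicate. Gene positions come from the mm9 tables, with 1 added to starts, which count from 0 in 6906 of 7730 genes compared with a gene table.

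The genes and lists were chosen with earlier results of these data known. Named with values were Htatsf1, every gene called for tamoxifen, the 5 largest rises and falls with time, the 5 highest and 3 lowest genes, the paralog groups and the 2 genes of smallest p of each list of splicing genes. Other genes, among them Rbmxl1, Srsf5, Celf1 and Rbfox2, were chosen after their values were seen. Alternatives were median-ratio scaling, quantile normalization, a pseudocount of 0.1, no filter, no trend, only the 4 libraries compared, a replicate block, sums of rows per identifier, the authors' table and leaving out each library.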

Additional observations from a re-analysis of the deposited data

Results flagged for a closer look

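The tamoxifen change of Srsf11 differed between 72 h and 48 h by 0.324 on the log2 scale (SE 0.073, limma adjusted p = 0.0419), by a direct test of the difference. Both tamoxifen libraries of 72 h were above both ethanol libraries of 72 h, while the groups overlapped at 48 h. The call was lost without any 1 of the 8 libraries. In the authors' deposited tables the log2 change of Srsf11 was 0.06 at 48 h and 0.22 at 72 h, against 0.04 and 0.36 here. The difference between times was not tested on those counts.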

How the results depend on the processing

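Counts of falls at 48 h (6) became 11 with median-ratio scaling, 3 with quantile normalization, 2 without the filter, 2 without the trend and 15 in the authors' deposited table, and ranged from 0 to 8 without 1 library. Rises at 72 h (5) became 3 with median-ratio scaling, without the filter, without the trend and in a fit of the 4 libraries compared, and ranged from 3 to 4 without 1 library. Falls at 72 h (11) ranged from 9 to 12 without 1 library and were 18 in the authors' deposited table. The Srsf11 difference (1 call) became 0 without the filter, without the trend, with the replicate block and without any 1 library (from 0 to 0). Rises with time became 1 in ethanol and 2 in tamoxifen (both 4) with median-ratio scaling, and without 1 library they ranged from 3 to 4 and from 2 to 4. Falls with time ranged from 23 to 27 in ethanol and from 21 to 25 in tamoxifen without 1 library. Where 1 library was left out, the lone library of its group was assumed to vary like the other groups. The cause of these changes was not tested.

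Of the direction of single genes, 1 reversed: Hnrnpa2b1 with time in ethanol (-0.25) was 0.013 after quantile normalization. A pseudocount of 0.1 and sums of rows per identifier changed none of the 205 results for single genes (41 genes in 5 contrasts). The labels tie the replicate numbers to no shared culture or batch, so they were not used as pairs. Deviations of same-numbered libraries correlated at 0.002 (48 h) and -0.06 (72 h) between treatments, and at 0.145 (ethanol) and -0.276 (tamoxifen) between times. The fit with a replicate block gave 4 falls at 48 h, 5 rises and 11 falls at 72 h, 3 rises and 25 falls with time in ethanol and 4 rises and 25 falls with time in tamoxifen, and lost 5 of the 205: Hnrnpd and Hnrnpu at 48 h (adjusted p = 0.0535 and 0.0691 in limma), the Srsf11 difference, Hnrnpa3 with time in ethanol and Ptbp1 with time in tamoxifen. With 2 libraries a group and 4 residual degrees of freedom, small changes are near the limit of the test, and Srsf12, Esrp2 and Rbmx rest on the fewest fragments.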

Other observations

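Relatives of these genes carry older symbols in the tables, which the choice by symbol did not take, and were named after their values were seen. Hnrpdl, an hnRNP D-like gene, stood at 111 and 116 FPKM in ethanol and at 89.7 and 88.5 FPKM in tamoxifen at 48 h, and at 75.1 and 77.2 FPKM against 49.99 and 56.4 FPKM at 72 h. The tamoxifen libraries were below the ethanol libraries at both times, and the log2 changes were -0.34 ± 0.06 (limma adjusted p = 0.00732) and -0.51 ± 0.06 (0.00018). Hnrpdl also fell from 48 h to 72 h in ethanol (-0.57 ± 0.06, limma adjusted p = 4.4e-05). Hnrpll, the hnRNP L-like gene, had tamoxifen changes of 0.12 ± 0.06 (limma adjusted p = 0.225) and 0.17 ± 0.06 (0.0539). Sfrs18, an older SR-type symbol, had changes of -0.09 ± 0.07 (limma adjusted p = 0.392) and 0.04 ± 0.07 (0.704).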
